A study of Mus musculus with 16 samples.

Results

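The comparison described here is between gastrocnemius muscle of Galgt2 transgenic mdx mice and gastrocnemius muscle of wild-type mice. It was selected by sample title, and holds 4 of the 16 Affymetrix arrays of the study, 2 a side. The wild-type mice were C57BL/6J. The transgenic mdx mice were of the cross C57BL/10J x C57BL/6J, lacked dystrophin and carried the Galgt2 transgene. All were males of 2 months, and 25 ng of total RNA was amplified for each array. As references, 2 arrays each of mdx muscle (C57BL/10J, lacking dystrophin) and of Galgt2 transgenic muscle (C57BL/6J, with dystrophin) stood beside them, from males of the same age. A further 4 arrays came from muscle of mdx mice (C57BL/10J), also 2 months old. It was given an adeno-associated virus (AAV) with Galgt2, or phosphate-buffered saline (PBS) on the opposite side. The last 4 arrays came from C2C12 mouse muscle cells with or without Galgt2. Strain background differed together with genotype, so strain and genotype cannot be told apart. The promoter of the transgene is not given in the sources used here, and the labels do not say that the 2 arrays of a group came from separate mice, so the spread between them may be technical.

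Dystrophin links the actin skeleton of the muscle fibre, through dystroglycan, the sarcoglycans and the syntrophins, to laminin outside the cell, and its loss in mdx mice is known for cycles of fibre death and regeneration with inflammation. B4galnt2, the enzyme that Galgt2 encodes, adds the terminal sugar of the cytotoxic T cell (CT) carbohydrate, which in normal muscle is found mainly at the neuromuscular junction. The comparison asks what is still not normal in muscle that lacks dystrophin while the enzyme is overexpressed.

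Levels below are log2 of the deposited intensity of the brightest probe set of each gene, and differences are transgenic mdx minus wild type on that scale, ± the standard error of the limma fit over the 12 muscle arrays. A gene was called where its limma p, adjusted over all 18194 genes, was under 0.05. The 8 arrays of this set had similar median intensities, from 57.7 to 63.95. RNA quality differed for 1 of them. In transgenic mdx replicate 2 the 3' probe set of Gapdh exceeded the 5' one by 1.23 (log2), against 0.18 to 0.48 on the other 7 arrays, and for Actb by 2.05, against 0.84 to 1.46. Its part in the differences was not tested, and counts without this array are given where they differ by more than 1.5 times. Detection calls were not used, so a level under the array medians of 5.85 to 5.95 is not shown to be above background, and no fold is given for a named gene with such a level in either group. The defining genes of fast skeletal muscle were near the top of the scale on all 4 arrays. Myh4, the fast myosin heavy chain, was at 13.87 on both wild-type arrays and at 13.44 and 13.70 in transgenic mdx muscle.

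B4galnt2 was the gene that rose most. Its level was 4.61 and 4.94 on the 2 wild-type arrays and 13.28 and 13.34 on the 2 transgenic mdx arrays. The groups stood far apart, with a difference of 8.54 ± 0.91 (limma adjusted p = 0.000459, n = 2 arrays a group). Galgt2 transgenic muscle with dystrophin reached 13.17 and 13.32, the same range. In mdx muscle the replicates disagreed, at 3.86 and 7.78, and with either of these mdx arrays left out the standard error of the difference fell to 0.30. The gene has 4 probe sets, of which only the brightest passed the test; the other 3 gave differences of -0.26 to 0.18, and the mean of all 4 gave 2.13.

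Dystrophin messenger RNA was reduced but present. Dmd stood at 11.14 and 11.16 in wild-type muscle and at 9.86 and 9.87 in transgenic mdx muscle, which is 2.44-fold lower (-1.29 ± 0.20, limma adjusted p = 0.00435). The replicates of each group were almost equal, and the difference was negative for all 4 Dmd probe sets, from -1.81 to -0.70. In mdx muscle without the transgene Dmd was lower still, at 8.52 and 8.13. The transgenic mdx level exceeded the mdx level by 1.54 ± 0.20 (limma adjusted p = 0.003).

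**Figure D1:**
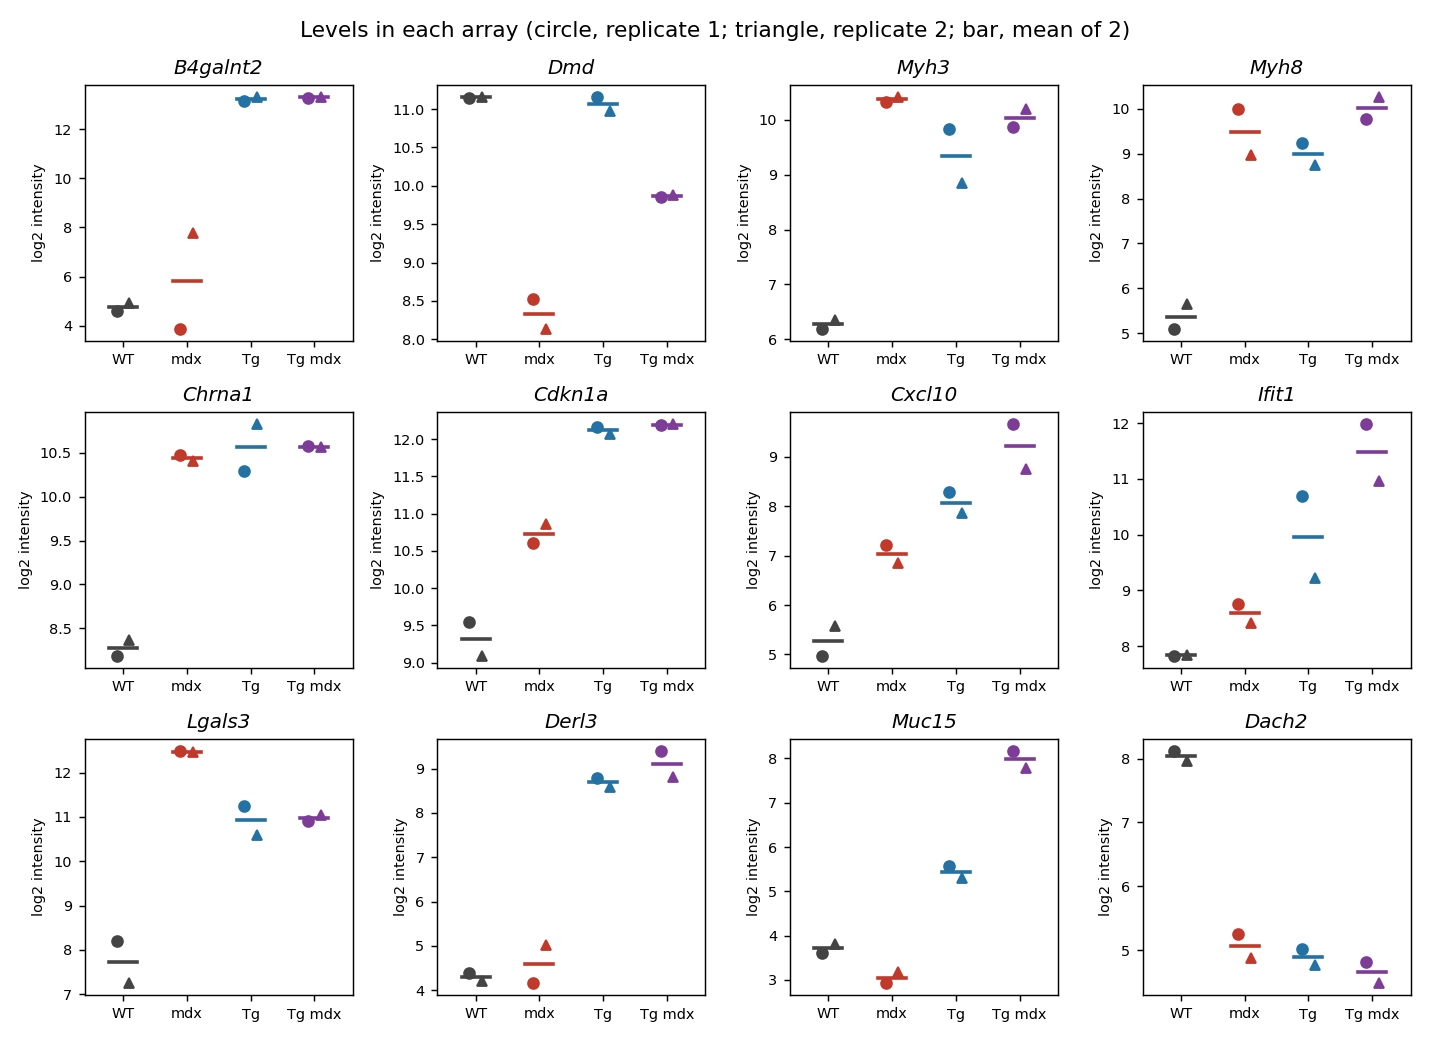
Log2 intensity of 12 genes (vertical axes) in wild-type (WT), mdx, Galgt2 transgenic (Tg) and transgenic mdx (Tg mdx) muscle, with 1 symbol per array and a bar at the mean of 2. B4galnt2 is at 13.28 and 13.34 in transgenic mdx muscle against 4.61 and 4.94 in wild type, Dmd lies between its wild-type and mdx levels, and Dach2 is lower in all 3 altered groups.

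Across all genes, 1324 of 18194 were called (7.28%). Of these, 894 were higher (4.91%) and 430 lower (2.36%) in transgenic mdx muscle, and at an unadjusted p under 0.05 there were 3873. Called rises ran from 0.68 to 8.54 with a median of 1.59, and 284 were at least 4-fold. Called falls had a median size of 1.28, the largest was -4.31, and 65 were at least 4-fold. For the 1324 called genes both transgenic mdx arrays lay on the same side of both wild-type arrays; among all genes this held for 27.8% upward and 24.2% downward. The number of calls rested on each of the 4 arrays: 537 genes were called without wild-type replicate 1, 434 without wild-type replicate 2, 1069 without transgenic mdx replicate 1 and 585 without transgenic mdx replicate 2. With each of the 4 left out in turn, 250 rises and 87 falls were called every time.

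**Figure D2:**
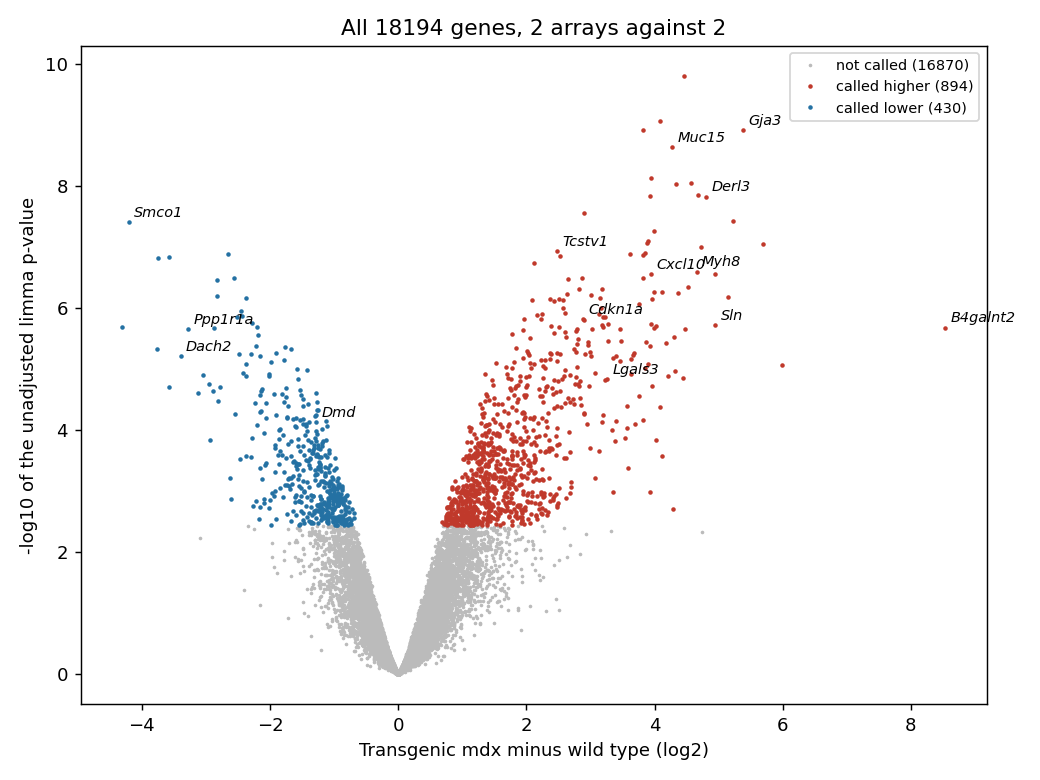
Difference of each of 18194 genes (transgenic mdx minus wild type, log2, horizontal) against -log10 of the unadjusted limma p (vertical). The 894 called rises reach 8.54 (B4galnt2) and the 430 called falls reach -4.31.

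The dystrophin complex as a whole had 0 of its 14 measured members called higher and 3 lower, with a median of -0.21; the median turned positive without wild-type replicate 2 (0.05) or transgenic mdx replicate 1 (0.02). Beside Dmd, the called members were Nos1 and Sgcd. Nos1, the neuronal nitric oxide synthase that dystrophin anchors at the membrane, was at 9.50 and 9.10 in wild-type and at 7.96 and 6.21 in transgenic mdx muscle (-2.22 ± 0.51). Sgcd, delta-sarcoglycan, was at 8.23 and 8.40 against 7.48 and 7.13 (-1.01 ± 0.22). As the mean of its probe sets Nos1 differed by -1.05 and was not called. Only Dmd was called with each of the 4 arrays left out; Nos1 and Sgcd were not called without either wild-type replicate or without transgenic mdx replicate 2, which left 1 call. Utrn, the autosomal relative of dystrophin, was at 12.11 and 12.21 against 12.53 and 11.42, so that the wild-type values fell between the transgenic mdx values (-0.19 ± 0.30, 95% interval -0.86 to 0.49). Dag1, which encodes both dystroglycan chains and so the protein that carries the CT carbohydrate, was at 11.59 and 11.64 against 11.66 and 11.80 (0.11 ± 0.21, interval -0.35 to 0.57), and only 1 of its 4 probe sets had this sign. The largest positive difference in the list, for beta-1-syntrophin (Sntb1), was 0.85 ± 0.23 and missed the threshold (limma adjusted p = 0.0567).

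Among 19 measured glycan enzymes, 3 were called higher and 1 lower. St6galnac4, a sialyltransferase, rose from 6.59 and 6.62 to 8.56 and 8.55 (1.95 ± 0.34). Cmas, which activates sialic acid for transfer, rose from 9.91 and 10.01 to 10.55 and 10.90 (0.76 ± 0.19), and St3gal6, another sialyltransferase, fell from 12.66 and 12.87 to 11.77 and 11.87 (-0.94 ± 0.19). Apart from B4galnt2 none of these calls held with each array left out: St6galnac4 was not called without wild-type replicate 2, St3gal6 without any 1 of the 4 arrays or as the mean of its probe sets (-0.49), and Cmas without either wild-type replicate, transgenic mdx replicate 2 or either transgenic or AAV-set array given Galgt2. B4galnt1, a related enzyme of ganglioside synthesis, stood at 4.33 and 4.56 in wild-type and 5.40 and 5.43 in transgenic mdx muscle, a difference of 0.97 ± 0.32 that missed the threshold (limma adjusted p = 0.1).

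Genes of immature muscle were above wild type. In the list of the embryonic and neonatal sarcomere, 8 of 16 measured members were called higher and 1 lower, with a median difference of 1.04 against 0.01 over all genes. Tnnt2, the troponin T of heart and embryonic muscle, rose from 6.36 and 6.25 to 11.20 and 11.30, or 30.8-fold (4.94 ± 0.43). Myh8, the perinatal myosin heavy chain, went from 5.09 and 5.65 to 9.78 and 10.27 (4.66 ± 0.40). Myh3, the embryonic heavy chain, went from 6.19 and 6.36 to 9.86 and 10.20 (3.75 ± 0.53). In these genes no wild-type value came within 3 log2 units of a transgenic mdx value. Myl4, the embryonic light chain, rose by 3.27 ± 0.37, with 0.27 for its other probe set. The same genes stood in mdx muscle at 10.10 and 10.14 (Tnnt2), 10.00 and 8.96 (Myh8) and 10.32 and 10.42 (Myh3). Against mdx, transgenic mdx muscle differed by 0.55 ± 0.40 for Myh8 and -0.34 ± 0.53 for Myh3, neither called (limma adjusted p = 0.5 and 0.8). Galgt2 transgenic muscle, which has dystrophin, held 10.95 and 10.55 of Tnnt2, 9.24 and 8.75 of Myh8 and 9.83 and 8.86 of Myh3. Each of these 3 was called above wild type there too, as were 6 of the 16 in all, with a median of 0.95; mdx muscle also had 6 called, with a median of 0.31. Actc1, cardiac alpha-actin, which also belongs to a list chosen on these samples, given further on, moved the other way. It fell from 12.81 and 12.92 to 10.55 and 11.16 (-2.01 ± 0.26), whereas mdx muscle held 13.11 and 13.05, a difference from transgenic mdx of -2.23 ± 0.26 (limma adjusted p = 0.0015). The counts for this list were 6 higher and 1 lower without any 1 of the 4 arrays.

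Genes of myoblast commitment and fusion were called higher in 5 of 16 cases and lower in 0. Mymx (myomixer), a peptide needed for myoblasts to fuse, was at 5.95 and 5.15 in wild-type and at 8.60 and 10.13 in transgenic mdx muscle (3.82 ± 0.60). Its partner Mymk (myomaker) was at 5.49 and 5.51 against 7.49 and 8.10 (2.29 ± 0.32). In mdx muscle Mymx was at 10.04 and 10.73, a range that overlaps that of transgenic mdx, and Mymk at 8.60 and 8.99, above it; neither difference from mdx was called. Myog, the transcription factor myogenin, rose from 9.87 and 9.15 to 12.36 and 10.82 (2.08 ± 0.46), and Myf5, a factor of muscle stem cells, from 8.54 on both arrays to 9.75 and 9.80 (1.24 ± 0.22). The count fell to 2 without either wild-type replicate and to 3 without transgenic mdx replicate 2; Mymx and Mymk were called each time.

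Several of the remaining genes belong to the program that muscle switches on when it loses its nerve. Of 19 measured members of the denervation list, 9 were called higher and 1 lower, with a median of 1.27, and the count of rises was 5 without wild-type replicate 2. The members Sln and Chrnd, and Dach2 as the fall, also belong to lists chosen on these samples, given further on. Sln, sarcolipin, a small peptide that inhibits the calcium pump, was at 8.07 and 6.29 in wild-type and at 12.60 and 11.64 in transgenic mdx muscle (4.95 ± 0.52). Cdkn1a, the cell-cycle inhibitor p21, rose from 9.55 and 9.09 to 12.19 and 12.21 (2.88 ± 0.30). It was at 10.60 and 10.87 in mdx muscle, 1.46 ± 0.30 below transgenic mdx (limma adjusted p = 0.02). Ankrd1, a stretch-induced repeat protein, rose by 3.38 ± 0.58, but was not called without wild-type replicate 2. Dach2, a repressor of myogenin, was the member that fell, from 8.12 and 7.97 to 4.82 and 4.48 (-3.39 ± 0.41). The ubiquitin ligase of atrophy Fbxo32 was at 11.77 and 10.48 against 10.92 and 9.84, ranges that overlap.

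At the neuromuscular junction, 5 of 16 measured genes were called higher and 0 lower, with a median of 0.45, and all 5 encode a receptor subunit or the receptor kinase. The delta subunit of the acetylcholine receptor, Chrnd, which also belongs to a list chosen on these samples, rose from 4.83 and 5.04 to 8.17 and 7.31 (2.80 ± 0.31). The alpha subunit, Chrna1, rose from 8.18 and 8.36 to 10.57 on both arrays (2.30 ± 0.38). Smaller rises were called for Chrne (1.16 ± 0.31), the kinase gene Musk (1.10 ± 0.25) and Chrnb1 (0.97 ± 0.22). The fetal subunit gene Chrng, at 5.72 and 6.48 against 7.26 and 7.48, just missed the threshold (1.27 ± 0.34, limma adjusted p = 0.0501). Chrna1 and Chrnd alone were called with each of the 4 arrays left out, and the count was then 2 without either wild-type replicate and 3 without either transgenic mdx replicate. Chrnd differed from its mdx level of 5.79 and 5.52 by 2.08 ± 0.31 (limma adjusted p = 0.0057). For Chrna1, whose mdx level was 10.47 and 10.41, the difference was 0.13 ± 0.38 and was not called.

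Among fibre-type genes the calls went up for slow and down for fast fibres. In the slow list 6 of 15 were called higher and 0 lower, with a median of 0.81. Tnni1, the slow troponin I, rose from 9.30 and 9.07 to 11.51 and 11.45 (2.30 ± 0.29), Casq2, the slow and cardiac calsequestrin, from 10.82 and 10.18 to 12.57 and 12.42 (1.99 ± 0.28), and Fhl2, a LIM protein of heart and slow muscle, from 6.09 and 6.42 to 8.72 and 8.94 (2.57 ± 0.24). These 3 were called with each array left out, and 3 were also all that remained called without wild-type replicate 1 or either transgenic mdx replicate. Of 18 fast-fibre genes, 0 were called higher and 2 lower; with 32 added before the log2 6 were lower, with a variance trend and robust limma fit 6, and with the mean of all probe sets 4. Mylk2, the kinase of the fast myosin light chain, fell from 10.24 and 10.69 to 8.22 and 8.73 (-1.99 ± 0.24). Ckm, muscle creatine kinase, fell from 13.18 and 13.20 to 12.37 and 11.94 (-1.03 ± 0.21), a call that was lost without either wild-type replicate or transgenic mdx replicate 2. The myosin heavy chain Myh4 differed by -0.30 ± 0.18 and was not called. In calcium handling, 3 of 21 genes were called higher, led by Sln; the others were Ryr3 (1.53 ± 0.40, but 0.50 and not called as the mean of its probe sets) and the slow calcium pump Atp2a2 (0.81 ± 0.21), and only Sln was called with each of the 4 arrays left out, the count being 1 without wild-type replicate 2, either transgenic mdx replicate or either AAV-Galgt2 array.

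Interferon-stimulated genes had the largest share called among the lists other than those chosen on these samples. Cells make their products after type I or type II interferon binds its receptor and STAT and IRF factors enter the nucleus, where the IRF-containing complexes bind the interferon-stimulated response element. Of 40 measured members, 29 were called higher and 0 lower, 40 of 40 had a positive difference, and the median was 2.05. The counts were 20 and 19 without wild-type replicates 1 and 2, and 21 and 26 without transgenic mdx replicates 1 and 2; 18 members were called each time. Upstream sequence of members that rose is shown here because the known binding element recurs in it. The element was searched as GAAANNGAAA on both strands, and capitals mark it, as its reverse complement where it lies on the opposite strand. Each line gives the 250 bases before the annotated start, 5′ to 3′ on the strand of the gene, from RefSeq.
Ifit1 (GRCm38.p6, chr19:34640639-34640888, plus strand): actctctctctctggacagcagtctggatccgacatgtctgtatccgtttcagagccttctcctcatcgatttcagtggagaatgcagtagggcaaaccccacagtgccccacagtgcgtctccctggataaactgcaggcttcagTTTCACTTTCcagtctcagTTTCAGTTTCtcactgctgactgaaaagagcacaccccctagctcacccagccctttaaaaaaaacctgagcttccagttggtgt
Ifit3 (GRCm38.p6, chr19:34583279-34583528, plus strand): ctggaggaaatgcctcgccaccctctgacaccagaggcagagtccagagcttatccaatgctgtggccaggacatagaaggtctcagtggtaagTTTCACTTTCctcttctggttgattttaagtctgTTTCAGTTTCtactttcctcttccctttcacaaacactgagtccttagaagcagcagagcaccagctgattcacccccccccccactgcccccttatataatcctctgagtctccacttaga
Cxcl10 (GRCm38.p6, chr5:92348890-92349139, minus strand): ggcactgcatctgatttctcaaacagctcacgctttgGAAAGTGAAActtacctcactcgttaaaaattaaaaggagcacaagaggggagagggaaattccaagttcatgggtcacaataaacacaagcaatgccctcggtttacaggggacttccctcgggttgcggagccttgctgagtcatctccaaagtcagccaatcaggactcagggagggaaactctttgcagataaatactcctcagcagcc
In the window from 250 bases before to 50 bases after the start, 17 of the 29 list members with a promoter entry held a match (58.6%). So did 13 of the 20 that were called (65.0%), against 3.63% of the 14453 measured genes with an entry and 3.99% of all 27025 genes in the table. Of the 9 list members that were not called, 4 held a match (44.4%), and Oasl1, which was called, held none. Among all 688 genes with an entry that were called higher, 46 held a match (6.69%). A match is a string in the sequence, not a bound site.

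The named members had low to moderate levels in wild-type muscle. Mx1, an antiviral GTPase, was at 4.71 and 5.41 in wild-type and at 9.93 and 8.91 in transgenic mdx muscle (4.36 ± 0.40). Cxcl10, the chemokine that interferon induces to attract T cells, was at 4.97 and 5.57 against 9.67 and 8.76 (3.95 ± 0.34). Ifit1, which binds uncapped viral RNA, was at 7.82 and 7.85 against 11.99 and 10.96 (3.64 ± 0.44). In each of these genes both transgenic mdx arrays stood more than 3 log2 units above both wild-type arrays, and transgenic mdx replicate 1 was the higher. Ifih1, the cytoplasmic sensor of double-stranded RNA also called MDA5, was at 7.86 and 7.73 against 11.41 and 10.63 (3.22 ± 0.43). Oasl1, a relative of the 2'-5' oligoadenylate synthetases, was at 5.03 and 4.70 against 9.79 and 8.0 (4.03 ± 0.69), a call lost without wild-type replicate 2. Not called were 11 members, among them the factor genes Irf1 and Irf9 and the kinase gene Eif2ak2.

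Part of the list also stood above mdx muscle. Transgenic mdx was called above mdx for 15 of the 40, with 0 called lower (the background was 3.97% called higher in that comparison). Ifih1 was at 7.79 and 7.99 in mdx muscle, a difference of 3.13 ± 0.43 (limma adjusted p = 0.0035), and Ifit1 at 8.76 and 8.41, a difference of 2.88 ± 0.44 (limma adjusted p = 0.0063). Mx1 was at 7.95 and 7.92 in mdx muscle, and its difference of 1.48 ± 0.40 was not called (limma adjusted p = 0.058). Against the same wild-type arrays, mdx muscle had 10 of the 40 called higher (background 3.75%) with a median of 0.92, and Galgt2 transgenic muscle 9 (background 2.12%) with a median of 0.85. Summed over the list, log2 intensity on the wild-type arrays was 13.62 and 13.38. The mdx arrays gave 14.20 and 14.45, the transgenic arrays 14.83 and 13.96, and the transgenic mdx arrays 15.65 and 14.92, so that both transgenic mdx arrays were above the other 6. Between transgenic mdx and transgenic muscle limma called 0 of these genes, with 23 of 40 higher and 0 lower at an unadjusted p under 0.05.

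**Figure D3:**
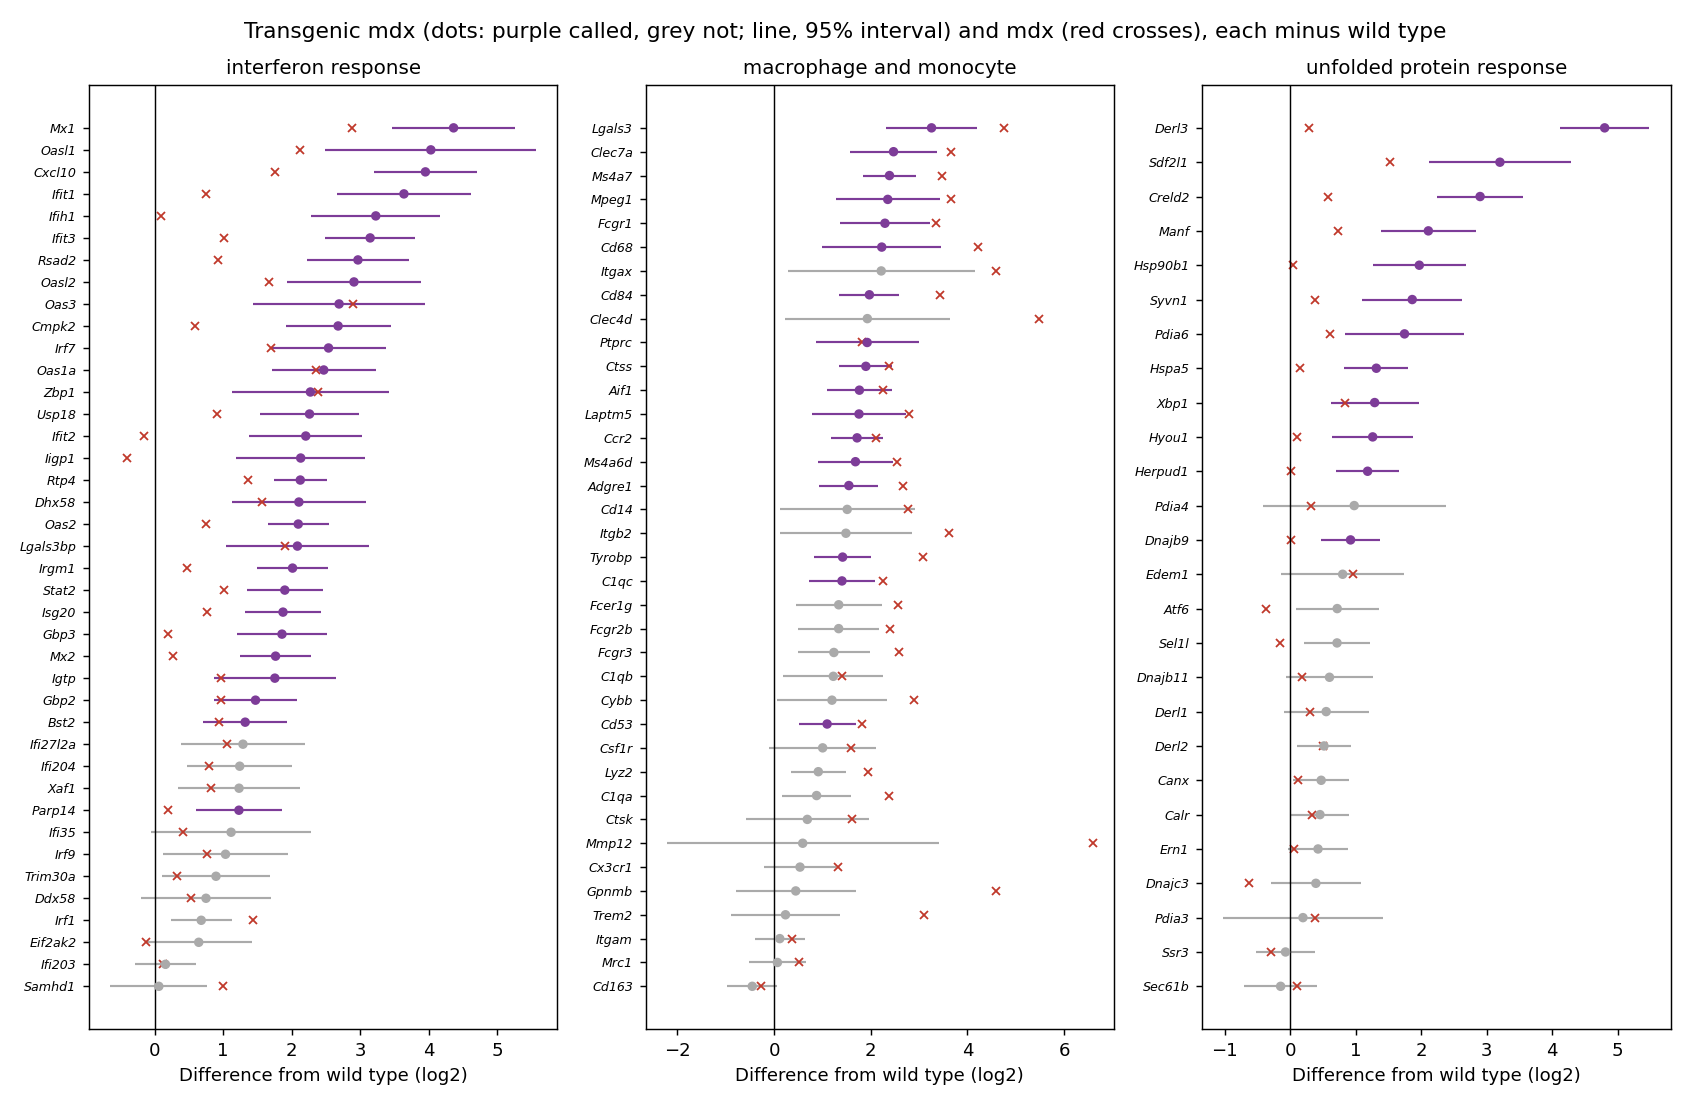
Difference from wild type (log2, horizontal) for each measured member of 3 lists, as dots with 95% intervals for transgenic mdx (purple, called) and as red crosses for mdx. Interferon members such as Ifih1 lie well to the right of their crosses, and macrophage members such as Gpnmb lie well to the left. Unfolded protein response members such as Derl3 (4.80 against 0.28), which also belongs to a list chosen on these samples, lie to the right.

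Macrophage and monocyte genes had calls in the upward direction only. Of 37 measured, 17 were called higher and 0 lower, with a median of 1.42; in a whole muscle, more cells of a type and more RNA per cell cannot be told apart. Lgals3, galectin-3 of activated macrophages, was at 8.19 and 7.25 in wild-type and at 10.91 and 11.05 in transgenic mdx muscle (3.26 ± 0.43). Clec7a, the fungal glucan receptor dectin-1, was at 5.80 and 5.74 against 8.08 and 8.41 (2.47 ± 0.40), and Ms4a7, a membrane protein of macrophages, at 6.07 and 6.39 against 8.58 and 8.65 (2.39 ± 0.25). For these genes the groups were clearly apart. The defining markers Adgre1, the F4/80 antigen, and Cd68 rose by 1.55 ± 0.28 and 2.23 ± 0.56, whereas Csf1r, the receptor of the macrophage growth factor, differed by 1.00 ± 0.50 and was not called (limma adjusted p = 0.288). Cd68 was not called without any 1 of the 4 arrays, and Adgre1 was lost without wild-type replicate 1 or transgenic mdx replicate 2. The count was 7 and 8 without wild-type replicates 1 and 2 and 9 and 8 without transgenic mdx replicates 1 and 2, and 6 genes, Lgals3, Ctss, Cd84, Ms4a7, Clec7a and Ccr2, were called each time.

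The summed macrophage level lay between wild type and mdx. In mdx muscle 30 of the 37 genes were called above wild type, with a median of 2.59, and transgenic mdx was called below mdx for 11 and above it for 0 (background 2.11% called lower). Summed over the list, log2 intensity on the wild-type arrays was 14.12 and 13.91, on those of mdx muscle 16.38 and 16.08, on the transgenic ones 15.20 and 14.49 and on the transgenic mdx ones 15.24 and 15.25. A few genes, chosen after their values were seen, were near wild type. Gpnmb, a glycoprotein of lipid-laden macrophages, was at 6.95 and 6.52 in wild-type, at 11.87 and 10.79 in mdx and at 7.18 and 7.19 in transgenic mdx muscle. It thus differed from mdx by -4.15 ± 0.56 (limma adjusted p = 0.0034) and from wild type by 0.45 ± 0.56, with an interval of -0.79 to 1.69. Mmp12, macrophage elastase, was at 3.52 and 3.53, 11.79 and 8.44, and 3.86 and 4.36 in the same order, with a difference from mdx of -6.00 ± 1.27 (limma adjusted p = 0.024).

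Chemokines and antigen presentation genes had calls in the upward direction only. Of 24 chemokines, 6 were called higher and 0 lower, with a median of 0.87. Ccl5, an attractant of T cells, rose from 4.86 and 4.20 to 8.61 and 8.37 (3.96 ± 0.54), and Ccl12, an attractant of monocytes, from 4.70 and 5.46 to 8.83 and 8.47 (3.57 ± 0.52). Both were above their mdx levels of 7.10 and 7.65, and 7.85 and 7.54, without either difference being called. Over the list, the median difference from mdx was -0.47, with 7 of 24 genes above 0. Against mdx 1 was called higher (background 3.97%) and 2 lower (background 2.11%). In mdx muscle 11 of the 24 were called above wild type, with a median of 1.55. Cxcl9, induced by interferon gamma, rose by 3.57 ± 0.58 but was not called without wild-type replicate 2. Of 18 antigen presentation genes, 8 were called higher and 0 lower, with a median of 0.77. In mdx muscle 12 were called above wild type, with a median of 1.41. The median difference of transgenic mdx from mdx was -0.52, with 2 of 18 above 0 and 0 called by limma. H2-Aa, a chain of MHC class II, rose from 9.50 and 9.46 to 10.77 and 10.81 (1.31 ± 0.19), and Ctss, the protease cathepsin S of that pathway, from 10.33 and 10.40 to 12.29 and 12.25 (1.90 ± 0.25). Tap1, the peptide transporter, rose by 1.5 ± 0.21, with 2 of its 4 probe sets of that sign, and as their mean it was 0.35 and not called. These 3 genes were called with each of the 4 arrays left out, and the count was 5 and 4 without wild-type replicates 1 and 2 and 5 and 4 without transgenic mdx replicates 1 and 2.

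Lists of other blood cells and of complement had few or no calls. Of 17 lymphocyte genes, 2 were called higher (11.76%, against 4.91% of all genes). Cd3e, of the T cell receptor complex, was at 5.01 and 4.99 in wild-type and at 6.76 and 8.25 in transgenic mdx muscle (2.51 ± 0.55), and the granzyme gene Gzma at 4.25 and 4.73 against 6.64 and 6.17 (1.92 ± 0.39). Neither was called without wild-type replicate 1 or 2, and the count was 1 without transgenic mdx replicate 2. Among neutrophil and mast cell genes limma called 0 of 15, with 0 higher and 1 lower at an unadjusted p under 0.05; S100a8, a calcium-binding protein of neutrophils, was at 6.51 and 6.89 against 9.03 and 9.29, and its difference of 2.46 ± 1.16 missed the threshold (limma adjusted p = 0.261). Of 17 complement genes only C1qc was called (5.88%, against 4.91% of all genes). It was at 8.03 and 8.30 against 9.50 and 9.64 (1.40 ± 0.30), and was not called without any 1 of the 4 arrays. Complement counts of 3 were obtained without either mdx or PBS array and of 2 without either transgenic array.

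Genes of protein folding in the endoplasmic reticulum formed another group with upward calls only. The unfolded protein response raises chaperones and degradation factors when misfolded protein builds up there, through ATF6, XBP1 and PERK. Of 26 measured members, 12 were called higher and 0 lower, with a median of 0.86. Both transgenic mdx arrays were above both wild-type arrays for 23 of 26 (27.8% of all genes). The upstream sequences of members that rose are shown because the known endoplasmic reticulum stress element, searched as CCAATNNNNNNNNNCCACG on both strands, lies in them in capitals (250 bases before the start, 5′ to 3′ on the strand of the gene, RefSeq).
Derl3 (GRCm38.p6, chr10:75893148-75893397, plus strand): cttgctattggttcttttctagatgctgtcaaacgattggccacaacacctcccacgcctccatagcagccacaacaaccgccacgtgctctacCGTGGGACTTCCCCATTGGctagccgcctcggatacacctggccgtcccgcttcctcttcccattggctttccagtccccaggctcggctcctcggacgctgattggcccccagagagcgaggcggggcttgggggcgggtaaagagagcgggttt
Creld2 (GRCm38.p6, chr15:88819396-88819645, plus strand): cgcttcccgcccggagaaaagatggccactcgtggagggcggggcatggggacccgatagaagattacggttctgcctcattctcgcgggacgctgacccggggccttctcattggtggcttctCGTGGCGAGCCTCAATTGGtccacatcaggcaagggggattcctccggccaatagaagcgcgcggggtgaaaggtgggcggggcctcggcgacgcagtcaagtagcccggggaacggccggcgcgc
Hsp90b1 (GRCm38.p6, chr10:86705445-86705694, minus strand): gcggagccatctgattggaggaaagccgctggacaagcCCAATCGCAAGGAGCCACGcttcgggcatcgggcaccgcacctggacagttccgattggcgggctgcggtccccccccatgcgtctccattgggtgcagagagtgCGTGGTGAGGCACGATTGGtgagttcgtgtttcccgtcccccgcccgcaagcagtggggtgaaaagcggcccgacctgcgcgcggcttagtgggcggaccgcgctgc
A match lay within the 300-base window of 9 of the 22 members with an entry (40.9%) and of 6 of the 10 that were called (60.0%), against 0.138% of measured genes and 0.137% of all genes in the table. Of the 12 members that were not called, 3 held a match (25.0%), and Sdf2l1, which was called, held none. Among all genes called higher the share was 1.31%.

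Derl3, which helps to export misfolded proteins for degradation, was at 4.40 and 4.21 in wild-type and at 9.40 and 8.81 in transgenic mdx muscle (4.80 ± 0.31). It also belongs to a list chosen on these samples, given further on. Sdf2l1, a chaperone cofactor, rose from 5.28 and 5.85 to 9.18 and 8.35 (3.20 ± 0.49), Creld2, a secreted stress-induced protein, from 7.43 and 7.10 to 10.48 and 9.84 (2.90 ± 0.30), and Manf, a chaperone-binding factor, rose by 2.11 ± 0.33. Hspa5, the main chaperone BiP, moved from 11.39 and 11.41 to 12.81 and 12.61 (1.31 ± 0.22). These 5 were called with each of the 4 arrays left out, while the count was 6 without either wild-type replicate or transgenic mdx replicate 1 and 8 without transgenic mdx replicate 2. Hsp90b1, the chaperone GRP94, rose by 1.97 ± 0.32 and was not called without wild-type replicate 2. In mdx muscle limma called 0 of the 26 against wild type (5 higher at an unadjusted p under 0.05) and the median was 0.23; in Galgt2 transgenic muscle 7 were, with a median of 0.85. Transgenic mdx exceeded mdx for 9 members. Derl3 was at 4.16 and 5.01 in mdx and 8.80 and 8.58 in transgenic muscle, so the transgenic mdx level was above mdx by 4.52 ± 0.31 (limma adjusted p = 7e-05).

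In the related integrated stress response, which ATF4 drives when translation is slowed, 10 of 29 genes were called higher and 2 lower. Trib3, a pseudokinase that ATF4 and CHOP induce, was at 5.91 and 5.79 against 9.20 and 8.76 (3.13 ± 0.31). Psat1 of serine synthesis was at 8.11 and 8.55 against 11.96 and 11.41 (3.36 ± 0.40) and Mthfd2 of mitochondrial folate metabolism at 8.38 and 8.45 against 10.65 and 10.66 (2.24 ± 0.22). Asns, asparagine synthetase, was at 8.11 and 6.47 against 11.42 and 11.40 (4.12 ± 0.76). The calls of Trib3, Psat1 and Mthfd2 held with each of the 4 arrays left out; Asns was not called without wild-type replicate 2 or transgenic mdx replicate 2. The count of rises was 6 and 4 without wild-type replicates 1 and 2 and 5 and 4 without transgenic mdx replicates 1 and 2, and that of falls was 0, 0, 1 and 0 in the same order, and 1 without either transgenic or PBS array. Of 19 p53 targets, Cdkn1a and Eda2r, a receptor of the tumour necrosis factor family (11.17 and 10.79 against 12.65 and 12.35, 1.52 ± 0.26), were called; without wild-type replicate 2 only Cdkn1a was, and without either mdx array 5 were.

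**Figure D4:**
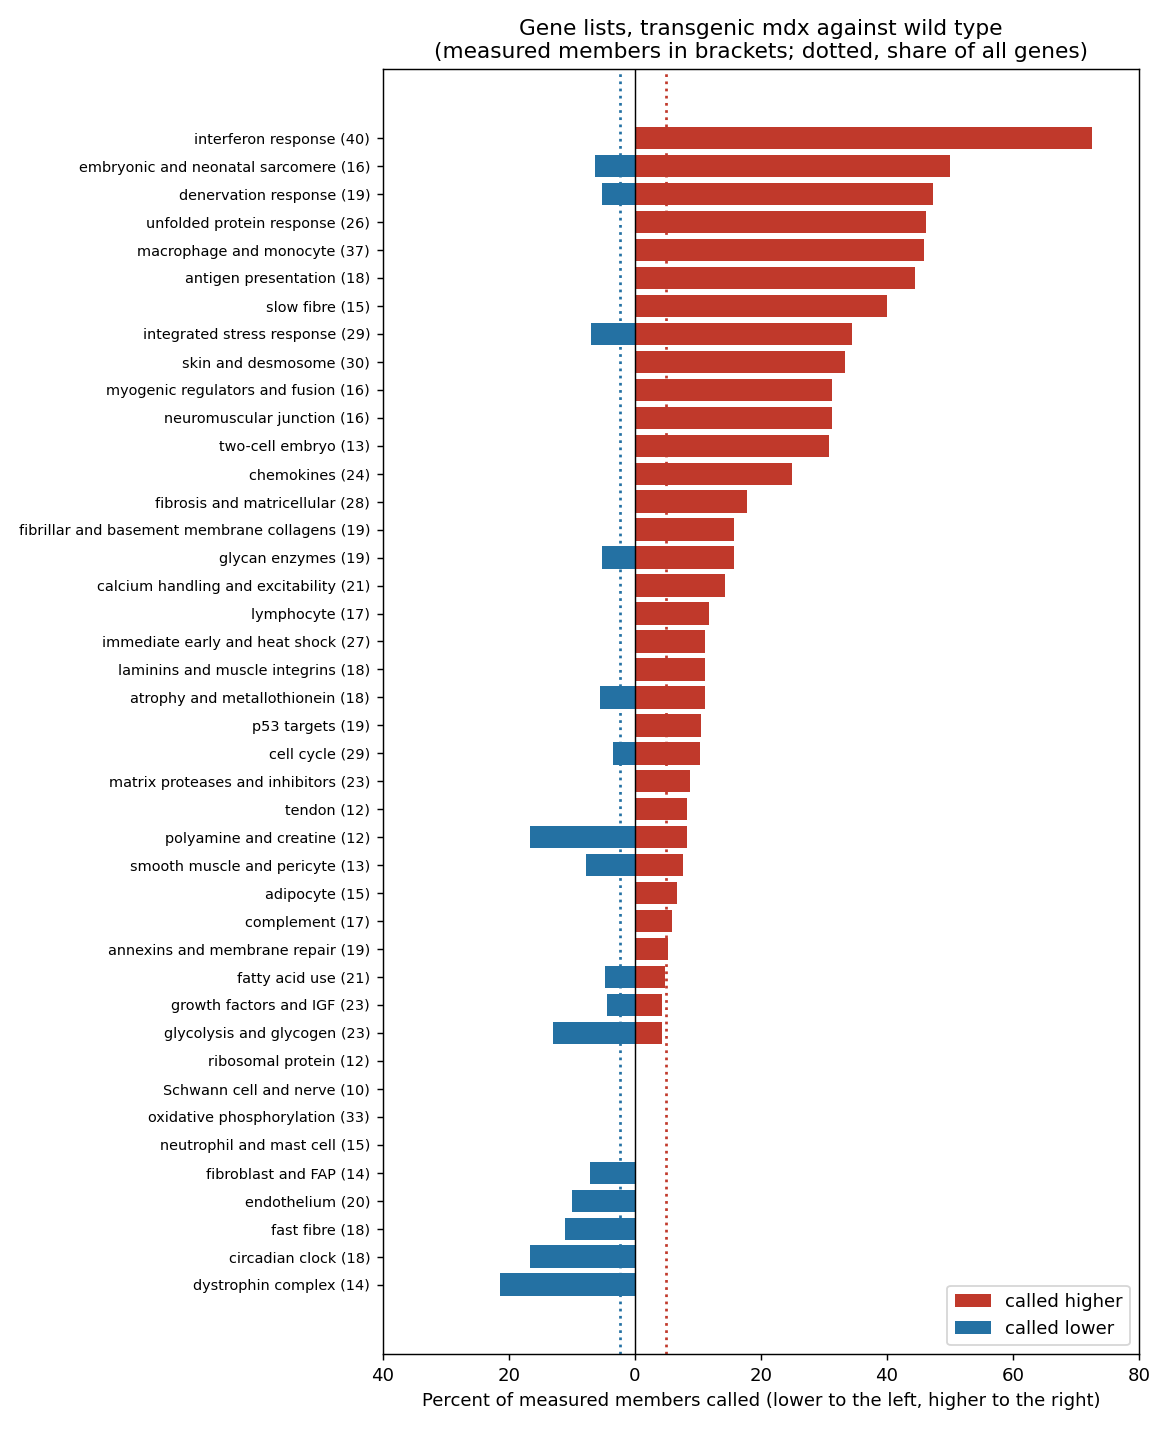
Percent of the measured members of each list (number in brackets) called higher (right, red) or lower (left, blue) in transgenic mdx than in wild-type muscle, with dotted lines at the shares of all genes, 4.91% and 2.36%. The ectopic and lost-gene lists, chosen on these samples, are left out, though the 2-cell and epithelial lists share 3 and 4 genes with the first. The unfolded protein response list also shares Derl3 with the first, denervation Sln and Chrnd, calcium handling Sln, and the neuromuscular junction Chrnd. The denervation, embryonic sarcomere, glycolysis and dystrophin complex lists share falls with the second. Interferon genes have the longest bar (29 of 40), and oxidative phosphorylation, ribosomal protein, Schwann cell and neutrophil lists have none called.

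Several genes known from other tissues were among the largest rises. The list of genes first seen in transgenic muscle of these samples had 14 of 14 called higher, with a median of 4.68; it was chosen on these samples and is not independent evidence of its direction. Its members also stand in other lists: 4 in the epithelial list, 3 in the 2-cell embryo list, Derl3 in the unfolded protein response, Sln in denervation and calcium handling, and Chrnd in denervation and the neuromuscular junction. Gja3, a connexin of the lens, was at 3.72 and 3.96 in wild-type and at 9.19 and 9.26 in transgenic mdx muscle (5.38 ± 0.27), while its other probe set had the opposite sign and the mean of both gave 2.63. Sox11, a factor of developing neurons, was at 8.27 and 7.46 against 13.18 and 13.01 (5.23 ± 0.37). F2, prothrombin, normally made in the liver, was at 4.00 and 4.15 against 8.74 and 8.55 (4.57 ± 0.28). The mdx level of Gja3 and F2 was close to that of wild type (4.05 and 4.06, and 4.21 and 4.89), and the transgenic level close to that of transgenic mdx (9.09 and 8.77, and 8.60 and 8.94). Anxa8, an annexin, rose by 4.68 ± 0.30, Ahnak2, a giant scaffold protein, by 4.52 ± 0.41, Timp1, an inhibitor of metalloproteases, by 4.47 ± 0.48, and the uncharacterised D13Ertd608e by 4.73 ± 0.37.

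Some of these genes are epithelial. Of 30 measured skin and desmosome genes, 10 were called higher and 0 lower, of which Dsp, Trp63, Lce1f and Muc15 had been chosen on these samples for this rise, while the median over the list was 0.11. Dsp, desmoplakin, was at 4.20 and 4.26 against 9.23 and 9.53 (5.15 ± 0.48), with 2 of its 3 probe sets of that sign. Lce1f, of the cornified envelope, was at 3.26 and 3.71 against 10.01 and 8.34 (5.69 ± 0.44), Sprr1a, of the same structure, at 4.79 and 5.01 against 9.37 and 9.08 (4.33 ± 0.26), and Muc15, a membrane mucin, at 3.61 and 3.82 against 8.17 and 7.79 (4.27 ± 0.23). Krt18 and Krt8, the keratins of simple epithelia, rose by 4.45 ± 0.58 and 3.96 ± 0.38. The defining keratin of basal skin, Krt5, stood at 5.61 and 5.98 in wild-type and at 5.66 and 5.42 in transgenic mdx muscle, below the array medians of 5.85 to 5.95 except in 1 wild-type array (-0.25 ± 0.21, not called). The epithelial list was called higher in 2 of 30 cases in mdx and 8 in transgenic muscle.

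Of 13 measured genes of the 2-cell embryo list, 4 were called higher and 0 lower, and all 4 were called with each of the 4 arrays left out. Of the 4, Usp17la, Tcstv1 and AF067061 had been chosen on these samples for their rise, so the count is no independent evidence. Usp17la, a deubiquitinase, was at 3.30 and 3.21 in wild-type and at 9.25 and 9.24 in transgenic mdx muscle (5.99 ± 0.74). It was at 2.88 and 3.29 in mdx, while the transgenic arrays disagreed at 7.36 and 4.46. AF067061 was at 5.22 and 5.09 against 9.56 and 9.67 (4.46 ± 0.18), Tcstv1 at 4.07 and 4.21 against 6.70 and 6.53 (2.48 ± 0.19) and Tcstv3 at 2.79 and 2.69 against 5.19 and 4.36 (2.04 ± 0.26). These genes belong to families of near-identical copies, so their probe sets may read more than 1 copy and the identity of the gene is uncertain. Tcstv3 remained below the array medians of 5.95 and 5.91 on both transgenic mdx arrays.

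The largest falls were in genes of varied kinds. Mettl11b, a methyltransferase, was at 9.27 and 9.22 in wild-type and at 4.20 and 5.67 in transgenic mdx muscle (-4.31 ± 0.46). Smco1, a coiled-coil membrane protein, was at 10.31 and 10.11 against 6.27 and 5.74 (-4.21 ± 0.30). Tlcd3b was at 10.52 and 10.21 against 6.58 and 6.60 (-3.77 ± 0.44), and Kcng4, a potassium channel subunit, at 7.63 and 7.96 against 3.55 and 4.54 (-3.75 ± 0.30). In these 4 genes the mdx level was closer to wild type, with Tlcd3b at 10.22 on both mdx arrays and Kcng4 at 7.45 and 7.54, and each was lower in transgenic mdx than in mdx muscle (-3.07 ± 0.46, -3.35 ± 0.30, -3.63 ± 0.44 and -3.45 ± 0.30, limma adjusted p of 0.0056, 0.00027, 0.0018 and 0.00025). Cdh4, retinal cadherin, fell by 3.58 ± 0.29, Tafa4 by 3.57 ± 0.49, Tafa3 by 3.13 ± 0.44, Osbpl6 by 3.04 ± 0.39, Arrdc2 by 2.95 ± 0.40, Myo5c by 2.88 ± 0.31 and Sall4 by 2.83 ± 0.27. Of Tafa4, Cdh4, Dach2 and Ppp1r1a the mdx level was also called below wild type. The 7 genes listed as lost in mdx or transgenic muscle were all called lower, but that list was chosen on these samples. They are Dach2, Cdh4, Mettl11b, Ppp1r1a, Smco1, Dmd and Actc1. Dach2 is the fall counted in the denervation list and Actc1 that in the embryonic sarcomere list. Ppp1r1a is among the falls of the glycolysis list and Dmd among those of the dystrophin complex. These falls are no independent evidence.

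In glycolysis and oxidative phosphorylation most differences were negative and few passed the test. Of 23 glycolysis and glycogen genes, 1 was called higher and 3 lower, with a median of -0.49, and 17 of 23 had both transgenic mdx arrays below both wild-type arrays (24.2% of all genes). Ppp1r1a, a phosphatase inhibitor, was at 9.70 and 10.14 against 6.73 and 6.55 (-3.28 ± 0.35), Phka1, a subunit of phosphorylase kinase, at 12.05 and 12.07 against 10.19 and 11.23 (-1.36 ± 0.31), and Pygm, muscle glycogen phosphorylase, at 13.13 and 13.19 against 12.24 and 12.45 (-0.82 ± 0.20). Hk1, a hexokinase, went the other way, from 7.01 and 6.95 to 8.90 and 9.28 (2.11 ± 0.35), with 0.43 for its other probe set. Ppp1r1a and Hk1 were called with each of the 4 arrays left out, Phka1 was lost without either wild-type replicate, transgenic mdx replicate 1 or either AAV-Galgt2 array, and Pygm without any 1 of the 4; 1 fall was called without either wild-type or AAV-Galgt2 array. With a variance trend and robust limma fit 6 falls were called, and with 32 added before the log2, the mean of probe sets or array weights 5; with only the 8 or the 4 arrays 1 was. In oxidative phosphorylation limma called 0 of 33 genes, with 3 lower and 0 higher at an unadjusted p under 0.05, and the median was -0.26; the smallest p belonged to Tfam, a factor of mitochondrial DNA (-0.65 ± 0.24, limma adjusted p = 0.152). In fatty acid use 1 of 21 genes was called higher and 1 lower, with a median of 0.02. Angptl4, a lipase inhibitor, rose by 1.96 ± 0.40, lost without wild-type replicate 1 or either transgenic mdx replicate, and Ppara, the receptor that induces fatty acid oxidation, fell by 0.91 ± 0.23, lost without any 1 of the 4 arrays. Of 18 clock genes 0 were called higher and 3 lower. Hlf was at 8.73 and 8.81 against 6.81 and 5.99 (-2.37 ± 0.31), close to its mdx level of 6.97 and 6.62, and it was the only 1 called without either wild-type replicate or transgenic mdx replicate 2. The atrophy and metallothionein list had 2 of 18 called higher and 1 lower. The rises were Mt2 and Cdkn1a, the latter also counted among denervation genes and p53 targets. The fall was Ddit4 (-1.13 ± 0.28), a call lost without any 1 of the 4 arrays. Mt2, a metal-binding protein, rose from 9.47 and 10.72 to 12.62 and 12.18 (2.31 ± 0.42), a call lost without wild-type replicate 1 or transgenic mdx replicate 1.

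In connective tissue and proliferation the calls were as follows. Of 28 fibrosis genes, 5 were called higher and 0 lower, with a median of 0.29. Ltbp2, a microfibril protein, was at 5.13 and 5.20 against 7.35 and 7.28 (2.15 ± 0.36), and was the only 1 called with each of the 4 arrays left out; the counts were 3 and 2 without wild-type replicates 1 and 2 and 3 without transgenic mdx replicate 2. Tgfb1, the profibrotic growth factor, was at 5.03 and 4.69 against 6.14 and 6.26 (1.34 ± 0.23), with its other probe set of opposite sign and a mean of both of 0.50 that was not called, and was 0.95 ± 0.23 below mdx (limma adjusted p = 0.041). It was not called without wild-type replicate 2 or transgenic mdx replicate 2. Of 19 collagens, 3 were called higher, led by Col8a1 (1.69 ± 0.38), and this count was 1 or 0 without any 1 of the 4 arrays. Of 23 proteases and inhibitors, 2 were called higher, Timp1 and Mmp2 (1.22 ± 0.22), of which Mmp2 was lost without wild-type replicate 2 or transgenic mdx replicate 2. Of 29 cell cycle genes, 3 were called higher and 1 lower, with a median of 0.84. Birc5, survivin, was at 5.95 and 6.29 against 7.97 and 8.28 (2.01 ± 0.47), and Aurka, the mitotic kinase aurora A, fell from 7.60 and 7.83 to 4.64 and 5.14 (-2.82 ± 0.25). The other Aurka probe set gave -0.004. The rises numbered 0 without either wild-type replicate or transgenic mdx replicate 2 and 6 without either PBS array, and Birc5 was also lost without transgenic mdx replicate 1, whereas Aurka was called each time. In mdx muscle 15 of the 29 were called above wild type.

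Several short lists had few calls. Of 27 immediate early and heat shock genes, 3 were called higher. Fosl1, a subunit of the AP-1 factor, was at 3.31 and 3.52 in wild-type and at 7.65 and 6.97 in transgenic mdx muscle (3.90 ± 0.48), and was called with each of the 4 arrays left out. Its other probe set gave 0.16. Hspb7, a small heat shock protein, rose by 2.07 ± 0.36 and was lost without wild-type replicate 2, which left 1 call; without either mdx array 5 were called. Among 23 growth factor genes Fgf7, keratinocyte growth factor, rose from 7.49 and 7.80 to 9.91 and 9.37 (1.99 ± 0.26), while mdx muscle held 6.90 and 6.33. The other Fgf7 probe set gave 0.45. Igfbp3, a binding protein of insulin-like growth factors, fell by 1.23 ± 0.24, lost without either wild-type replicate or transgenic mdx replicate 1. Anxa4 was the 1 of 19 annexin and membrane repair genes called, from 10.76 and 10.55 to 12.53 and 12.30 (1.76 ± 0.24), and 2 were called without either mdx array. Of 18 laminin and integrin genes, 2 were called higher. Itga5, the integrin chain of the fibronectin receptor, rose by 1.65 ± 0.25 and was called with each of the 4 arrays left out. Its other probe sets gave only -0.22 to 0.03, and its call was lost in 1 of the other settings. Itga7, of the laminin receptor of muscle, rose by 0.99 ± 0.23 and was lost without any 1 of the 4. Of 12 polyamine and creatine genes 1 was called higher, Gamt of creatine synthesis (1.55 ± 0.38), and 2 lower, among them the AMP deaminase gene Ampd1 (-1.03 ± 0.25). Both were lost without either wild-type replicate, Gamt also without transgenic mdx replicate 2 and Ampd1 without replicate 1. Among 14 fibroblast genes only Smoc2 was called (-0.85 ± 0.23), lost without any 1 of the 4 arrays. Of 12 ribosomal protein genes limma called 0, with 1 higher at an unadjusted p under 0.05.

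Markers of other cell types in the muscle gave these values. Of 20 endothelial genes, 0 were called higher and 2 lower, the median was -0.61, and summed list intensity was 13.57 and 13.54 (log2) in wild-type against 12.91 and 13.04 in transgenic mdx muscle. The calls were Tek, the angiopoietin receptor (-1.02 ± 0.27), and Esam, an adhesion molecule (-1.0 ± 0.22), and neither was called without wild-type replicate 2 or transgenic mdx replicate 2. Leaving out wild-type replicate 1, transgenic mdx replicate 1 or any AAV-Galgt2 or PBS array gave a count of 1. Pecam1, which defines endothelium, was at 7.66 and 8.39 against 6.94 and 6.62 (-1.25 ± 0.41, limma adjusted p = 0.103). In smooth muscle and pericytes 1 of 13 genes was called higher and 1 lower. Cspg4 rose by 1.36 ± 0.22, but as the mean of its probe sets it was 0.70 and not called. Rgs5 fell by 2.27 ± 0.54, a call lost without either wild-type replicate, transgenic mdx replicate 2 or either AAV-Galgt2 array. The brightest Rgs5 probe set over the 4 arrays compared was another one, at -0.51 and not called. By limma 0 of 10 Schwann cell genes (1 lower at an unadjusted p under 0.05) and 0 of 5 red blood cell genes (0 at an unadjusted p under 0.05) were called. Rises were called for 1 of 15 adipocyte and 1 of 12 tendon genes (6.67% and 8.33%, against 4.91% of all genes). The adipocyte median was 0.15, with 11 of 15 above 0, and the defining gene Adipoq was not called. The tendon median was -0.11, with 5 of 12 above 0, and the defining gene Tnmd was not called. Pparg was the adipocyte gene (0.94 ± 0.25), lost without either wild-type replicate, transgenic mdx replicate 2, or either transgenic, AAV-Galgt2 or PBS array. Scx was the tendon gene (1.66 ± 0.30), lost without wild-type replicate 2 or transgenic mdx replicate 2.

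Set side by side, the 3 altered muscles departed from the same 2 wild-type arrays by different amounts. Called genes numbered 990 in mdx (5.44%), 573 in transgenic (3.15%, with 1.03% lower) and 1324 in transgenic mdx muscle; because the wild-type arrays are shared, these counts are not independent. Median list differences in mdx, transgenic and transgenic mdx muscle were 2.59, 1.05 and 1.42 for macrophage genes, 1.69, 0.68 and 0.84 for cell cycle genes, 0.31, 0.95 and 1.04 for the embryonic sarcomere and 0.03, 0.61 and 0.81 for slow-fibre genes. The mdx count was 186 and 132 without wild-type replicates 1 and 2, 495 with mdx replicate 2 removed and 649 with an AAV-Galgt2 array removed, and the transgenic count 184 and 193 without the wild-type replicates and 289 and 307 without transgenic replicates 1 and 2. Directly compared, transgenic mdx muscle differed from mdx muscle at 1107 genes (6.08%), or 311 once transgenic mdx replicate 2 was removed, 537 once mdx replicate 2 was removed and 692 once an AAV-Galgt2 array was removed. With only the 8 arrays of the transgenic set, the transgenic count was 365 and that of transgenic mdx against mdx 643; with array weights the mdx count was 594 and that of transgenic mdx against mdx 397. Against a fold of 1.5, these counts were 137 for mdx, 153 for transgenic and 142 for transgenic mdx against mdx.

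**Figure D5:**
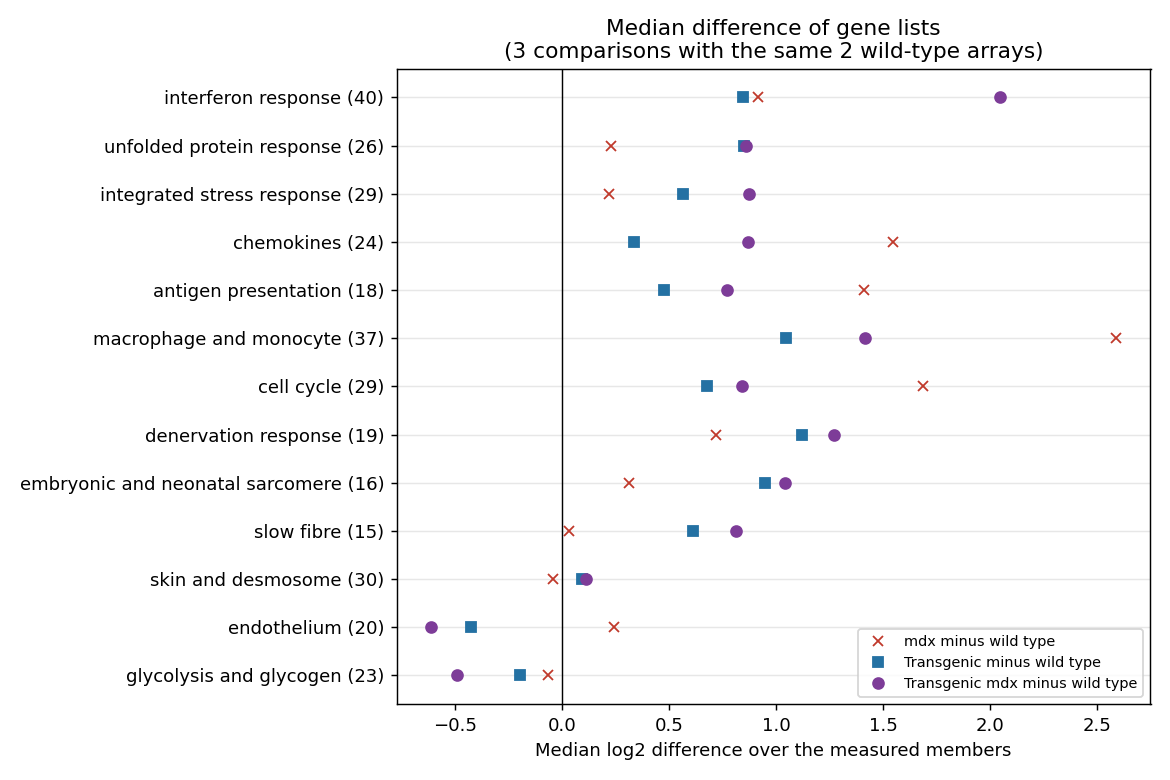
Median log2 difference from wild type over the measured members (in brackets) of 13 lists in mdx (crosses), transgenic (squares) and transgenic mdx muscle (circles). All 3 use the same 2 wild-type arrays; the macrophage median is 2.59 in mdx and 1.42 in transgenic mdx muscle, and the interferon median is 0.92 and 2.05.

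From Galgt2 transgenic muscle with dystrophin, transgenic mdx muscle differed at 10 genes (0.0550%), 9 of them higher (0.0495%) and 1 lower (0.00550%), and at 708 with an unadjusted p under 0.05. The few calls do not show that the 2 muscles are alike. The 10 were chosen for this difference after their values were seen. Muc15 was higher by 2.55 ± 0.23, AF067061 by 2.20 ± 0.18 and Tcstv1 by 2.15 ± 0.19 (limma adjusted p = 0.00286 for each). Scn4b, a subunit of the sodium channel of the fibre membrane, fell by 1.5 ± 0.21 in this comparison and stood at 12.70 and 12.50 in wild-type, at 11.36 and 11.54 in transgenic, and at 10.14 and 9.76 in transgenic mdx muscle. Rab6b, a Golgi transport GTPase, was at 6.65 and 5.07 on the transgenic and at 8.94 and 9.31 on the transgenic mdx arrays, against 7.01 and 7.47 in wild type. The other 5 were AF067063, BC080696, BC147527, Gm20767 and Tmem125. Dmd differed by -1.20 ± 0.20 in this comparison, which was not called (limma adjusted p = 0.13). This count became 4 without either wild-type replicate, 22 without transgenic replicate 2 and 6 without any 1 array of the AAV set; it was 3 with only the 8 arrays of the transgenic set, 4 against a fold of 1.5 and 0 among genes above the median level. The effect of lacking dystrophin differed between muscle with and without the transgene at 8 genes (0.0440%) in the limma interaction term, 4 with a positive term (0.0220%) and 4 with a negative one (0.0220%).

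Muscle that received Galgt2 by AAV shares no array with these groups. The median intensity of the AAV and PBS arrays was 25.35 to 25.71, against 57.7 to 63.95 in the transgenic set, so levels cannot be compared between the sets. The main fit did not pair the AAV and PBS arrays. B4galnt2 was at 10.54 and 10.56 after AAV-Galgt2 and at 5.27 and 4.26 after PBS in mdx muscle, a difference of 5.78 ± 0.91 (limma adjusted p = 0.233). By limma 0 of 18194 genes were called there, with 1506 at an unadjusted p under 0.05; 158 were called without PBS replicate 2, 3 without PBS replicate 1 and 1 without either mdx array. Beside B4galnt2, the other 14 of the 15 largest rises in transgenic mdx muscle had AAV differences from -0.83 ± 0.74 for Usp17la to 1.13 ± 0.41 for Ahnak2, 9 of them positive, and none was called. They were 0.07 ± 0.27 for Gja3, -0.09 ± 0.52 for Sln and 0.83 ± 0.40 for Myh8. List medians after AAV-Galgt2 were 0.73 for the neuromuscular junction, with 16 of 16 members above 0, 0.85 for collagens, with 19 of 19 above 0, 0.47 for denervation, 0.49 for myogenic regulators and 0.22 for interferon genes, against 0.03 over all genes, with 0 members called by limma in each. Over all genes, 9874 of 18194 were above 0.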

How the data were processed

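RNA for 12 gastrocnemius arrays and 4 C2C12 arrays was amplified, labelled with biotin and read on 1-colour Affymetrix arrays. The values are intensities on a linear scale, deposited by the authors as a series table; the submitters' processing notes name GCOS and RMA without versions or roles, and detection calls were not used here. Log2 of the deposited intensity was taken with no further normalization. Of 45101 probe sets, 34958 have 1 gene symbol, 932 several and 9211 none in the platform annotation, and the brightest single-symbol probe set over the muscle arrays stood for each of 18194 genes. One limma 3.58.1 fit (R 4.3.3) over the 12 muscle arrays held 6 group means, with empirical Bayes and Benjamini-Hochberg adjustment over all genes. The fit left 6 residual degrees of freedom, and only 2 arrays a group limit its precision. The procedure was tested on simulated data.

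Genes that could be named were set by rule: B4galnt2 and Dmd, the 15 largest called rises and falls whose arrays do not overlap, up to 5 called members of each list by size, or in a list with no call the 2 members with the lowest p, and any dystrophin complex, glycan or junction gene. Outside it, Myh4, Krt5, Pecam1, Adgre1, Cd68, Csf1r, Adipoq, Tnmd, Gapdh and Actb were named as markers or controls. Actc1, Fbxo32, Hspa5, Krt8, Ifit3, Irf1, Irf9, Eif2ak2, Cd84, Ccr2, Gpnmb, Mmp12, Trp63 and the genes called against transgenic muscle were named after their values were seen. Kcnj3 and Tyrobp are named for their interaction term. The 45 lists hold 903 genes, 812 of them measured. Members and lists were chosen with earlier results of these data known. Motifs were searched with Python 3.11.15 in RefSeq windows of GRCm38.p6. Alternatives covered the arrays fitted, scaling, pseudocount, filters, probe set choice, variance model and each array left out. The 4 C2C12 arrays entered no test.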

Additional observations from a re-analysis of the deposited data

Results flagged for a closer look

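The difference between transgenic mdx and transgenic muscle was set against that between mdx and wild-type muscle in the limma interaction term, and 8 of 18194 genes passed (0.0440%). For 4 genes the interaction term was positive, that is, the difference was more positive with the transgene than without it. Muc15 differed by 2.55 with and -0.66 without it (interaction 3.21 ± 0.32, limma adjusted p = 0.0107). AF067061 differed by 2.20 and -0.47 (2.67 ± 0.26, limma adjusted p = 0.0107), Tcstv1 by 2.15 and -0.33 (2.47 ± 0.28, limma adjusted p = 0.0198) and the potassium channel gene Kcnj3 by 0.55 and -1.65 (2.20 ± 0.29, limma adjusted p = 0.0429). For Kcnj3 the fall without the transgene was the larger change. The other 4, all expressed in macrophages, had a negative term and the larger effect without the transgene. Lgals3 differed by 0.05 with and 4.75 without the transgene (-4.70 ± 0.61, limma adjusted p = 0.0374). Cd84 differed by 0.31 and 3.44 (-3.13 ± 0.40, limma adjusted p = 0.0373), Ms4a7 by 0.62 and 3.47 (-2.85 ± 0.36, limma adjusted p = 0.0373) and Tyrobp by 0.26 and 3.08 (-2.82 ± 0.38, limma adjusted p = 0.0429). The number of genes passing was 0 without either wild-type replicate, 142 without mdx replicate 1, 30 without transgenic replicate 2, 15 without transgenic mdx replicate 1, 113 without either PBS array, 3 without transgenic replicate 1 or transgenic mdx replicate 2, and 2 when an AAV-Galgt2 array was removed. Among the other settings, it ranged from 2 against a fold of 1.5, over 3 with array weights or among genes above the median level, to 20 with a variance trend and robust fit, apart from the replicate block given in the next part.

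Among the C2C12 arrays, which no comparison used, B4galnt2 was at 9.76 in C2C12-Galgt2 and 4.58 in C2C12 myoblasts, a difference of 5.18 (log2) between single arrays with no test.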

How the results depend on the processing

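With 1 array left out in turn, 434 to 1575 genes were called, 318 to 1034 of them higher and 116 to 541 lower; the extremes came without wild-type replicate 2 and without an mdx array. With only the 8 arrays of the transgenic set, 842 genes were called, 234 of them lower, and with only the 4 arrays compared 269 fell. Among genes above the median level 552 rose, 3 of them epithelial. Tested against a fold of 1.5, 322 genes were called, 252 higher and 70 lower, with 6 macrophage, 5 unfolded protein response, 4 integrated stress response and 3 slow-fibre rises left. A replicate block gave 927 calls, 646 higher and 281 lower, and 0 genes passed the interaction term. Same-numbered replicate differences correlated at -0.44 to 0.54 between groups. The value for wild type was -0.44 with mdx, 0.54 with transgenic and 0.18 with transgenic mdx muscle. The labels give the replicates only a number, and whether same-numbered arrays share a source of variation was not tested. The other settings moved the total by less than 1.5 times. Of 161 called genes followed, 82 never lost their call in the settings that tested them, up to 24, and 79 lost it in at least 1; dim genes were not tested where only genes above the median level entered. Dag1 turned to -0.45 as the mean of its probe sets, and Utrn was 0.37 without transgenic mdx replicate 2 and -0.74 without replicate 1; the cause was not tested. With 2 arrays a group, the fit assumes that a lone remaining array varies like the other groups.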
